A study of Mus musculus with 8 samples.

Results

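The proteasome subunits described here are the 45 genes whose symbol is Psma, Psmb, Psmc, Psmd, Psme, Psmf or Psmg followed by a number, out of 55487 genes listed in the count tables. Psmb8, Psmb9 and Psmb10, the interferon-inducible catalytic subunits, were set apart as a comparison. By their place in the complex the members fell into 8 genes of the 20S alpha ring, 8 of the 20S beta ring, 6 ATPases and 11 further subunits of the 19S cap, 4 genes of activators, the regulator PI31 (Psmf1), and 7 assembly chaperones, of which Psmg1 to Psmg4 serve the 20S core and Psmd5, Psmd9 and Psmd10 serve the 19S cap. The rule used symbols alone and no measured value.

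RNA sequencing had been performed on whole liver from 4 control and 4 Mc1r LKO mice, all male and fed a cholesterol-rich Western diet for 12 weeks from an age of 8 weeks. The control mice were age-matched Mc1r fl/fl animals. The Mc1r LKO mice carried the same Mc1r fl/fl alleles together with AlbCre/+, a Cre recombinase under the albumin promoter that acts in hepatocytes. The paper describes the loss of Mc1r, the melanocortin 1 receptor, as specific to hepatocytes. Its state in the other cells of these livers could not be checked here. The comparison asked how loss of this receptor from hepatocytes altered liver gene expression.

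The proteasome is the main protease of the cytosol and nucleus. Its 20S core is a barrel of stacked alpha and beta rings, and the proteolytic sites lie on the inner face of the beta rings, where PSMB5, PSMB6 and PSMB7 carry the chymotrypsin-like, caspase-like and trypsin-like activities. The 19S cap recognizes ubiquitin chains, removes them, and unfolds and feeds the substrate into the core with a ring of ATPases, whereas the activators PA28 and PA200 open the core without ubiquitin recognition. In hepatocytes, as in other cells, most subunit genes are expressed in concert, and the factor NRF1 (Nfe2l1) raises their expression when proteasome capacity falls short.

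Libraries held 10773151 (control mouse 159) to 24763375 counts on genes (Mc1r LKO mouse 157), and between 38847 and 92890 of these counts fell on the members. The targeted gene Mc1r had 0 counts in each of the 8 mice, which allows up to 0.278 CPM (counts of a gene relative to the size of the library) in the shallowest library, so the genotypes could not be checked against it. On a principal component analysis of all tested genes, Mc1r LKO mouse 182 (59.3) and control mouse 181 (27.8) stood apart from the other 6 mice (-28.2 to -7.03) on the first component, which held 37.6% of the variance, and control mouse 159 stood apart on the second (40.5). Each of the 10 hepatocyte markers was detected in every mouse. Fewer cells of a type and less RNA per cell cannot be told apart in whole liver, and p-values measure only the spread between these mice.

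Most members had a slightly higher level in Mc1r LKO livers, and no member passed the threshold after correction. Of the 45 members, 44 passed the filter on low counts, and 38 of the 44 had a higher fitted level in Mc1r LKO than in control mice, a direction that 47.9% of all 13400 tested genes had. Scaled by library size alone the count was 36 of 44, because Psmd11 and Psmf1 fell on the other side of 0. The median log2 fold change (Mc1r LKO over control) was 0.11 over the members and -0.01 over all tested genes. Genes of like abundance, with a mean of 50 to 200 CPM, lay in between, since 58.6% of the 2069 such genes were higher in Mc1r LKO mice with a median of 0.03, against 29 of 34 members in this range with a median of 0.11. Cell type markers also differed in direction between the genotypes. The fitted level was higher in Mc1r LKO mice for 9 of 10 hepatocyte markers (median log2 fold change 0.15) and lower for 10 of 10 Kupffer cell and macrophage markers (median -0.41) and 5 of 6 endothelial markers (median -0.14). Without control mouse 159 these medians were 0.27, -0.18 and -0.08. All 4 tested cholangiocyte markers were also higher (median 0.37, and 0.30 without mouse 159). Of 6 stellate cell and fibroblast markers, 4 were lower (median -0.07, and -0.17 without mouse 159). The part of cell composition in the levels of the members was not tested.

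In the quasi-likelihood test of edgeR no member reached an adjusted p-value under 0.05, and neither did any other gene (0.0% of those tested), the lowest adjusted p-value of a member being 0.734. DESeq2, which called 17 genes in all, and limma-voom, which called 0, also called no member. At an unadjusted p-value under 0.05, 5 members were higher in Mc1r LKO mice (Psma2, Psma7, Psmb3, Psmb5 and Psmd9), where 3.86% of all tested genes were, and 0 members were lower, where 2.87% of all tested genes were. With a log2 fold change of at least 0.25 required in addition, 2 members remained (Psmb3 and Psmb5), against 2.64% of all tested genes. The genotypes did not overlap for 3 members, Psmb1, Psmb4 and Psmb5, all higher in Mc1r LKO mice, against 2.63% of all tested genes, and no member was lower without overlap, against 1.54%. Among genes of 50 to 200 CPM these counts were higher. There, 208 of 2069 genes had an unadjusted p-value under 0.05 in either direction, against 4 of 34 members. Of the 2069 genes, 110 were higher and 21 lower without overlap, against 3 and 0 of the 34 members.

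**Figure D1:**
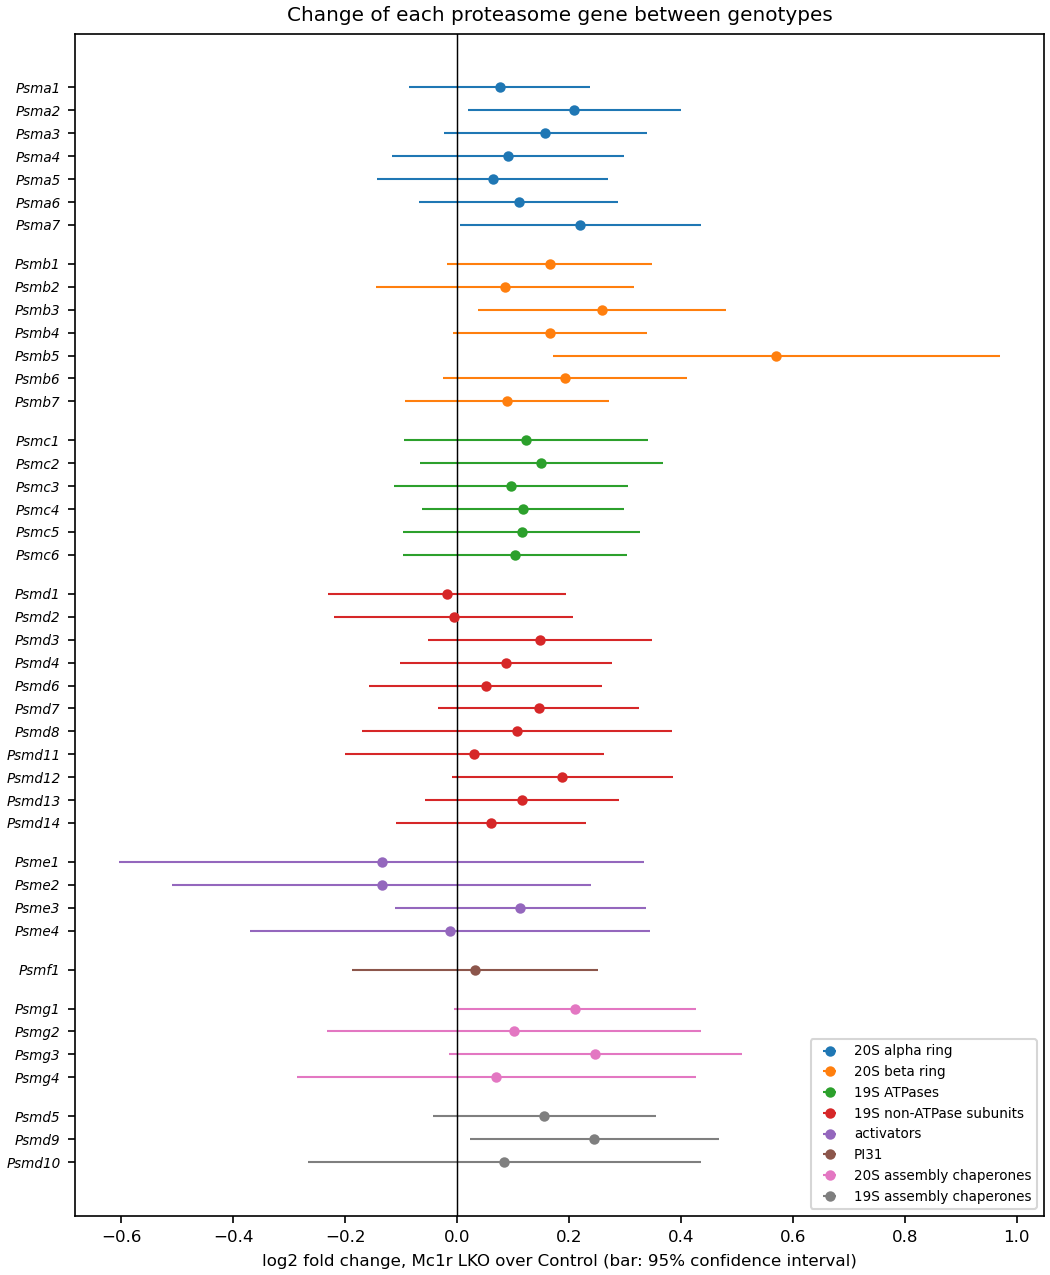
Log2 fold change of 43 members between Mc1r LKO and control mice (points) with 95% confidence intervals (bars), grouped and coloured by place in the complex; Psma8 and Psmb11 are left out because they were at or near 0. The points of all classes but the activators lie mostly right of 0, and Psmb5 (0.57) lies farthest.

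The members with the largest log2 fold changes, Psmb5 and Psmb3, belonged to the 20S core. Of its 15 tested genes, 14 were higher in Mc1r LKO mice (median log2 fold change 0.16), and 4 had an unadjusted p-value under 0.05. The medians were 0.10 for the alpha ring and 0.17 for the beta ring. The exception in direction was Psma8, a subunit of testis, at -0.04.

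Psmb5 (ENSMUSG00000022193, chromosome 14 of GRCm38, 54614119 to 54618022, minus strand) encodes the subunit with the chymotrypsin-like site. It was measured at 30.9, 44.6, 44.1 and 43.7 CPM in control mice 154, 159, 181 and 193, and at 83.7, 55.4, 55.0 and 48.6 CPM in Mc1r LKO mice 141, 156, 157 and 182. All 4 Mc1r LKO mice lay above all 4 control mice, with mouse 141 far above the rest and mouse 154 below them. The group means were 40.8 ± 6.64 and 60.7 ± 15.7 CPM (SD, n = 4 each). The log2 fold change was 0.57 (SE 0.18, 95% confidence interval 0.17 to 0.97), with an unadjusted p-value of 0.00972 and an adjusted p-value of 0.734. Among the members it alone had an unadjusted p-value under 0.05 under every alternative tried, at most 0.0257, although the log2 fold change was 0.38 without mouse 141 and 0.46 without mouse 154. The pseudogene Psmb5-ps held at most 1 count in a mouse. The microRNA gene Mir686, which overlaps an exon of Psmb5 on the same strand, held 0 counts, and read pairs in that stretch could be lost to both.

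Psmb6 and Psmb7 encode the other constitutive catalytic subunits. Psmb6, the caspase-like one, was at 110, 143, 121 and 114 CPM in control mice 154, 159, 181 and 193 and at 145, 141, 132 and 139 CPM in Mc1r LKO mice 141, 156, 157 and 182. Of the control mice, 3 lay below all Mc1r LKO mice, and mouse 159 lay among them. Its log2 fold change was 0.19 (SE 0.10, unadjusted p = 0.0769), and 0.29 without mouse 159. Psmb7, the trypsin-like one, was at 123, 127, 125 and 120 CPM in the control mice and at 133, 119, 131 and 143 CPM in the Mc1r LKO mice, in the same order of mice. The groups overlapped, and its log2 fold change was 0.09 (SE 0.08, unadjusted p = 0.305).

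The promoters of Psmb5, Psmb6 and Psmd9 are shown because their genes are among those named here and each holds the core of the antioxidant response element, TGACNNNGC, to which NRF1 and NRF2 bind as dimers with small Maf proteins, shortly before the transcription start. The bases are the sense strand from RefSeq (GRCm38.p6), from position -100 relative to the RefSeq start up to -1 for Psmb6 and Psmd9, and up to -28 for Psmb5, beyond which an exon is annotated. Capitals mark the motif.
Psmb5 (chr14:54618023-54618095, minus strand): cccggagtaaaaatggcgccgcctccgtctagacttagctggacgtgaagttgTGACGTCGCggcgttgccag
Psmb6 (chr11:70525257-70525356, plus strand): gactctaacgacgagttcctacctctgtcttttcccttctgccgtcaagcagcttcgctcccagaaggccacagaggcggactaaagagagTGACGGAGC
Psmd9 (chr5:123228090-123228189, plus strand): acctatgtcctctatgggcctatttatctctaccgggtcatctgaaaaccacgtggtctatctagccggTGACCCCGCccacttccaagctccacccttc
Searched on both strands of windows of 300 bases, 250 before and 50 after the start, the motif was found in 6 of the 37 members with a window (16.2%): these 3 genes, Psmc6, Psmd12 and Psme4. It was found in 14.0% of the 27025 genes with a window and in 12.4% of the 32851 windows, so its share among the members was near that of all genes. In Psmb5 it starts at -47, in Psmb6 at -9 and in Psmd9 at -31. The count tables give Psmd9 a longer span than RefSeq, from 123169413 to 123250131, so its RefSeq start lies inside that span.

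Of the other beta subunits, which are structural, Psmb3 had an unadjusted p-value under 0.05. It was at 54.6, 64.1, 54.1 and 55.5 CPM in control mice 154, 159, 181 and 193 and at 77.4, 63.8, 61.3 and 70.6 CPM in Mc1r LKO mice 141, 156, 157 and 182. Control mouse 159 lay within the range of the Mc1r LKO mice, and the other 3 control mice lay below it. The log2 fold change was 0.26 (SE 0.10, unadjusted p = 0.0259). Leaving out mouse 154, 181, 193 or 141 brought the unadjusted p-value to between 0.0536 and 0.0790.

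Psmb1 and Psmb4 did not overlap between the genotypes although their differences were small. Psmb1 was at 134, 138, 136 and 121 CPM in control mice 154, 159, 181 and 193 and at 146, 144, 144 and 160 CPM in Mc1r LKO mice 141, 156, 157 and 182 (log2 fold change 0.17, SE 0.08, unadjusted p = 0.0724). Psmb4 was at 111, 127, 115 and 118 CPM in the control mice and at 131, 138, 128 and 133 CPM in the Mc1r LKO mice (log2 fold change 0.17, SE 0.08, unadjusted p = 0.0581). For Psmb4 the highest control mouse, 159, and the lowest Mc1r LKO mouse, 157, lay close together. Psmb2 had a log2 fold change of 0.09 (SE 0.10) and overlapping groups. Psmb11, the beta subunit of the thymus proteasome, had 0 counts in every mouse and was not tested.

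In the alpha ring, whose subunits form the gate of the core, Psma2 and Psma7 had unadjusted p-values under 0.05. Psma2 was at 74.9, 85.3, 72.5 and 72.9 CPM in control mice 154, 159, 181 and 193 and at 91.2, 81.4, 89.5 and 90.9 CPM in Mc1r LKO mice 141, 156, 157 and 182 (log2 fold change 0.21, SE 0.09, unadjusted p = 0.0344). Psma7 was at 98.3, 115, 103 and 94.4 CPM in the control mice and at 134, 120, 110 and 114 CPM in the Mc1r LKO mice (log2 fold change 0.22, SE 0.10, unadjusted p = 0.0460). In both genes control mouse 159 was the one that overlapped with the Mc1r LKO mice. The unadjusted p-value of Psma2 was between 0.0560 and 0.0854 without mouse 154, 181, 193, 141, 157 or 182, and that of Psma7 between 0.0745 and 0.128 without mouse 154, 181, 193, 141 or 156. Psma6 was at 92.2, 97.0, 100.2 and 90.5 CPM in the control mice and at 107.5, 97.0, 97.8 and 107.5 CPM in the Mc1r LKO mice, and its log2 fold change was 0.11 (SE 0.08). Psma1, Psma3, Psma4 and Psma5 had log2 fold changes between 0.06 and 0.16, none with an unadjusted p-value under 0.05. Psma8, which replaces Psma7 in germ cells, had between 4 and 32 counts in a mouse, and its log2 fold change of -0.04 had an SE of 0.48.

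In the 19S cap, 15 of 17 genes were higher in Mc1r LKO mice. Their median log2 fold change of 0.11 was close to the 0.10 of the alpha ring, and the core and the cap were not tested against each other. No gene of the cap had an unadjusted p-value under 0.05 or separate genotypes. All 6 ATPases were higher, within a narrow band of 0.10 to 0.15. Psmc1 (Rpt2) was at 116, 98.8, 124 and 109 CPM in control mice 154, 159, 181 and 193 and at 120, 109, 126 and 132 CPM in Mc1r LKO mice 141, 156, 157 and 182, for a log2 fold change of 0.12 (SE 0.10, unadjusted p = 0.236). Psmc2 (Rpt1), the ATPase with the smallest p-value, was at 89.5, 83.3, 98.4 and 92.3 CPM in the control mice and at 97.0, 91.9, 98.2 and 117 CPM in the Mc1r LKO mice, for a log2 fold change of 0.15 (SE 0.10, unadjusted p = 0.154). In both ATPases mouse 159 was the lowest and mouse 182 the highest of the 8 mice.

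The 11 subunits without ATPase activity had log2 fold changes between -0.02 and 0.19. Psmd12 (Rpn5), of the lid of the cap, had the smallest p-value. It was at 91.3, 86.5, 95.2 and 79.3 CPM in control mice 154, 159, 181 and 193 and at 100.1, 94.2, 97.4 and 109 CPM in Mc1r LKO mice 141, 156, 157 and 182. Its log2 fold change was 0.19 (SE 0.09, unadjusted p = 0.0605), and control mouse 181 was the one that overlapped. Psmd8 (Rpn12), also of the lid, had the largest residual SD of the cap genes (0.19 on the log2 scale), ranging from 141 to 190 CPM in control mice and from 142 to 185 CPM in Mc1r LKO mice, with a log2 fold change of 0.11 (SE 0.12). Psmd1 and Psmd2, which encode the large scaffold subunits Rpn2 and Rpn1, showed log2 fold changes of -0.02 (SE 0.10) and -0.01 (SE 0.10). Psmd1 ranged from 115 to 144 CPM in control mice and from 124 to 139 CPM in Mc1r LKO mice. Psmd14, the deubiquitinase Rpn11, and Psmd4, the ubiquitin receptor Rpn10, had log2 fold changes of 0.06 (SE 0.08) and 0.09 (SE 0.08). Gm21972, which overlaps an exon of Psmd1 on the same strand, held 0 counts.

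The median log2 fold change of the activators was -0.07, with 1 of 4 genes higher in Mc1r LKO mice, and it was 0.08 without control mouse 159. Psme1 and Psme2, the subunits of the PA28 complex that interferon-gamma induces, had the lowest values. Psme1 was at 83.0, 152, 76.3 and 81.3 CPM in control mice 154, 159, 181 and 193 and at 79.2, 98.3, 99.8 and 79.6 CPM in Mc1r LKO mice 141, 156, 157 and 182. Psme2 was at 48.0, 80.8, 44.9 and 50.4 CPM in the control mice and at 49.3, 52.4, 52.1 and 49.5 CPM in the Mc1r LKO mice. Mouse 159 stood far above the other 7 mice in both genes, which among themselves overlapped. The log2 fold change of Psme1 was -0.13 (SE 0.21, unadjusted p = 0.537) with all mice and 0.16 (unadjusted p = 0.176) without mouse 159. That of Psme2 was -0.14 (SE 0.17, unadjusted p = 0.441) and 0.10 (unadjusted p = 0.25). Both genes lie on chromosome 14, Psme1 from 55578123 to 55581529 and Psme2 from 55587441 to 55591113. The related locus Psme2b held at most 69 counts in a mouse.

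Markers of interferon-gamma and of immune cells moved with these activators in mouse 159. All 24 listed interferon-gamma genes, of which 23 were tested, were highest in this mouse, and their summed level was 4752 CPM there and between 1951 and 2445 CPM in the other 3 control mice, against 2017 to 2574 CPM in Mc1r LKO mice. Of 10 Kupffer cell and macrophage markers, 8 were highest in mouse 159, and their sum ranged from 317 to 734 CPM over the control mice and from 220 to 485 CPM over the Mc1r LKO mice. Of 8 markers of T and NK cells, 5 were highest there, with sums of 2.02 to 8 CPM in control mice and 2.27 to 3.17 CPM in Mc1r LKO mice. In mouse 159 every marker of these 3 lists had counts. In the other mice no Kupffer cell marker was at 0, 1 interferon-gamma gene was at 0 in mouse 181 and 3 T and NK cell markers were at 0 in mouse 182. The interferon-gamma list holds Psmb8, Psmb9 and Psmb10, and its part in the level of the activators was not tested.

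Psme3 and Psme4 behaved otherwise in mouse 159. Psme3, the nuclear PA28-gamma subunit, was at 61.8, 50.0, 62.5 and 60.2 CPM in control mice 154, 159, 181 and 193 and at 59.0, 63.6, 59.7 and 71.5 CPM in Mc1r LKO mice 141, 156, 157 and 182 (log2 fold change 0.11, SE 0.10). Psme4, the large monomeric activator PA200, was at 125, 80.8, 133 and 110 CPM in the control mice and at 98.0, 99.0, 114 and 134 CPM in the Mc1r LKO mice (log2 fold change -0.01, SE 0.16). For both, mouse 159 was the lowest of the 8 mice. Psmf1 (PI31), which binds the core and was first described as its inhibitor, was at 31.2, 34.8, 27.9 and 29.7 CPM in the control mice and at 32.5, 34.6, 30.7 and 28.5 CPM in the Mc1r LKO mice. Its groups overlapped, with a log2 fold change of 0.03 (SE 0.10) that was -0.01 when scaled by library size alone.

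**Figure D2:**
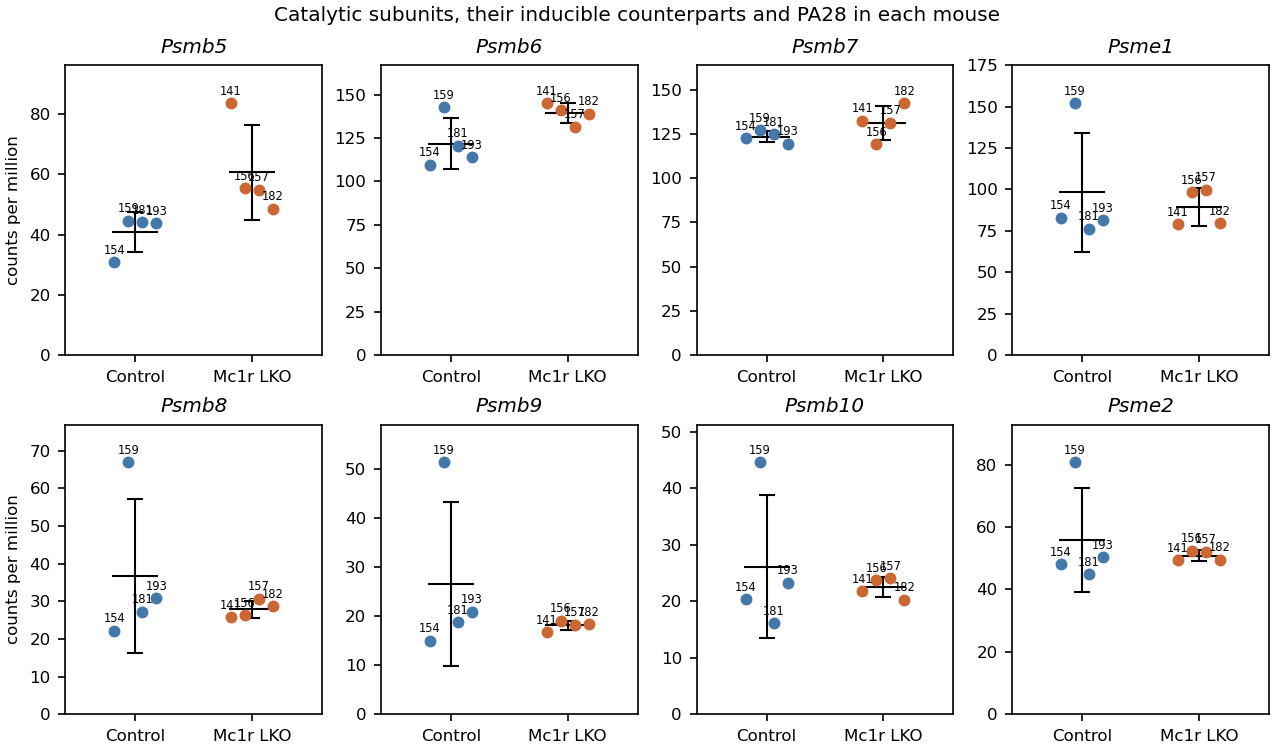
CPM (y axes from 0) of the catalytic subunits Psmb5, Psmb6 and Psmb7, their inducible counterparts Psmb8, Psmb9 and Psmb10, and Psme1 and Psme2 in each mouse (points with mouse numbers), with mean and SD over 4 mice per genotype. Psmb5 is higher in each Mc1r LKO mouse than in any control mouse, and control mouse 159 stands above all other mice in the 3 inducible subunits, Psme1 and Psme2.

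All 7 assembly chaperones were higher in Mc1r LKO mice (median log2 fold change 0.16). Psmd9 (p27), which brings ATPases of the cap together, was the one with an unadjusted p-value under 0.05. It was at 34.0, 31.7, 34.3 and 39.4 CPM in control mice 154, 159, 181 and 193 and at 46.5, 39.9, 41.8 and 37.4 CPM in Mc1r LKO mice 141, 156, 157 and 182. Control mouse 193 lay above Mc1r LKO mouse 182, and the groups were otherwise apart. The log2 fold change was 0.25 (SE 0.10, unadjusted p = 0.0334), and the unadjusted p-value was between 0.0576 and 0.0914 without mouse 154, 159, 181, 141 or 157.

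Among the chaperones of the core, Psmg1 (PAC1) was at 18, 19.1, 18 and 15.8 CPM in control mice 154, 159, 181 and 193 and at 21.4, 20.4, 18.5 and 21.6 CPM in Mc1r LKO mice 141, 156, 157 and 182 (log2 fold change 0.21, SE 0.10, unadjusted p = 0.0549). Psmg3 (PAC3) was at 10.6, 9.30, 12.1 and 10.4 CPM in the control mice and at 13.0, 11.5, 12.8 and 13.1 CPM in the Mc1r LKO mice (log2 fold change 0.25, SE 0.12, unadjusted p = 0.0617). In each of these genes 1 control mouse overlapped, mouse 159 in Psmg1 and mouse 181 in Psmg3. Psmd10 (gankyrin) was at 12.2, 7.72, 10.7 and 11.5 CPM in the control mice and at 11.6, 9.68, 12.5 and 11.1 CPM in the Mc1r LKO mice (log2 fold change 0.08, SE 0.16). Psmg2, Psmg4 and Psmd5 had log2 fold changes of 0.10, 0.07 and 0.16, with overlapping groups. Gm26938, which overlaps an exon of Psmg3 on the same strand, held 0 counts.

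The inducible subunits take the places of Psmb5, Psmb6 and Psmb7 in the immunoproteasome, so each was set against the member it replaces, as the log2 ratio of their CPM within a mouse. The ratio of Psmb8 to Psmb5 was -0.47, 0.58, -0.70 and -0.51 in control mice 154, 159, 181 and 193 and -1.69, -1.07, -0.84 and -0.76 in Mc1r LKO mice 141, 156, 157 and 182. All 4 Mc1r LKO mice lay below all control mice, by 0.82 on average (exact permutation test over mice, two-sided p = 0.0286, the least that 4 against 4 mice can give, and 0.0857 after Benjamini-Hochberg adjustment over the 3 ratios). Without mouse 159 the difference was -0.53 (exact p = 0.0857), and without any single Mc1r LKO mouse the exact p was 0.0571. The ratio of Psmb9 to Psmb6 differed by -0.57 (exact p = 0.0571, adjusted 0.0857), with 3 of the 4 Mc1r LKO mice below all control mice, and by -0.28 without mouse 159. The ratio of Psmb10 to Psmb7 differed by -0.20 (exact p = 0.714, adjusted 0.714) with overlapping groups, and by 0.08 without mouse 159.

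The numerators of these ratios were themselves highest in control mouse 159. Psmb8 was at 22.2, 66.9, 27.2 and 30.7 CPM in control mice 154, 159, 181 and 193 and at 25.8, 26.4, 30.7 and 28.7 CPM in Mc1r LKO mice 141, 156, 157 and 182. Psmb9 was at 15, 51.3, 18.7 and 20.9 CPM and at 16.7, 19, 18.3 and 18.3 CPM, in the same order. Psmb10 was at 20.4, 44.6, 16.2 and 23.3 CPM and at 21.8, 23.7, 24.1 and 20.3 CPM. Apart from mouse 159 the genotypes overlapped in all 3 genes, and none had an unadjusted p-value under 0.05 (log2 fold changes of -0.38, -0.53 and -0.20). Without mouse 159 the log2 fold change was 0.07 for Psmb8 and 0.62 for Psmb5, so their ratio then differed mainly through Psmb5. For Psmb9 and Psmb6 these values were -0.003 and 0.29, and for Psmb10 and Psmb7 0.18 and 0.11. The ratios reuse the values of Psmb5, Psmb6 and Psmb7 given above and are not separate evidence.

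The core and the cap stood at different levels in single mice. In mouse 159, 14 of the 15 tested genes of the 20S core lay above the other 3 control mice, with a median log2 ratio to them of 0.19, whereas 4 of 17 genes of the cap did, with a median of -0.04, and 5 of 7 assembly chaperones lay below them, with a median of -0.21. Of all 13400 tested genes, 4236 lay above the other control mice in mouse 159, with a median log2 ratio of 0.02. Among the 2069 genes of 50 to 200 CPM, 542 did, with a median of -0.04. In Mc1r LKO mouse 182 the cap stood out instead, with 14 of 17 genes above the other Mc1r LKO mice and a median log2 ratio of 0.16, against 3 of 15 genes of the core and a median of 0.02. Of all 13400 tested genes, 4500 lay above the other Mc1r LKO mice in mouse 182, with a median of -0.01. Among the 2069 genes of 50 to 200 CPM, 1031 did, with a median of 0.08. Over all 8 mice, 12 of the 17 cap genes were highest in mouse 182, 7 of the 15 core genes were highest in mouse 141, and 19 of the 44 tested members were lowest in control mouse 193. For these ranks, and for genes below the other control mice, the share of all tested genes was not counted. In mouse 182, 7 of 10 Kupffer cell markers, 6 of 6 endothelial markers and 4 of 6 stellate cell and fibroblast markers were at their lowest. There, 6 of 10 hepatocyte markers were at their highest. The summed hepatocyte markers ranged from 78854 to 97789 CPM in control mice and from 86304 to 114110 CPM in Mc1r LKO mice, and the summed endothelial markers from 173 to 214 CPM and from 128 to 204 CPM, respectively. The summed stellate cell markers ranged from 252 to 509 CPM and from 228 to 436 CPM. None of these markers was at 0 in any mouse, and the part of cell composition in the levels of the cap was not tested.

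**Figure D3:**
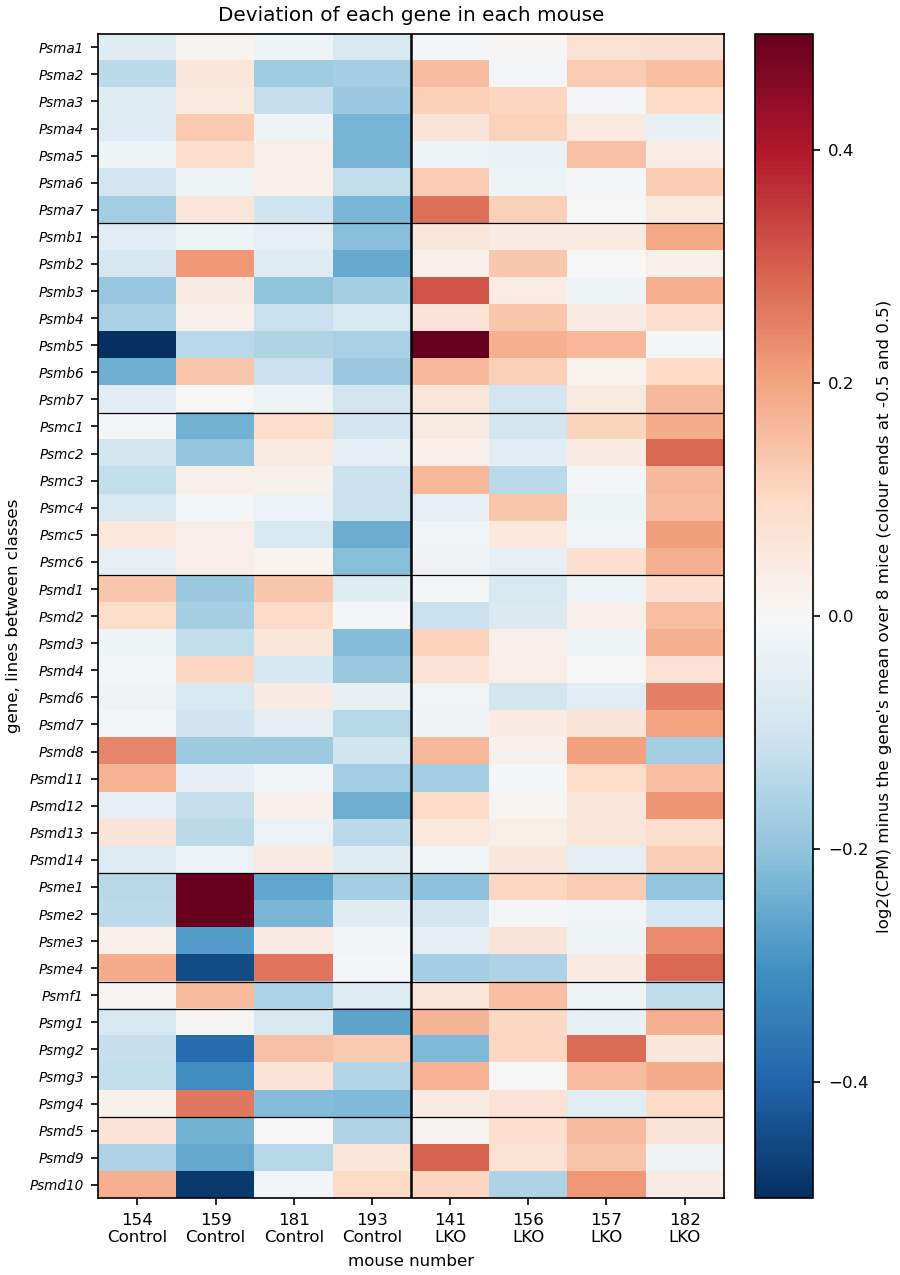
Deviation of log2 CPM of 43 members (rows, ordered by class) from each gene's mean over the 8 mice (columns, mouse numbers with genotype), with colours ending at -0.5 and 0.5. In control mouse 159 most rows of the 20S core are red and most rows of the chaperones are blue, in Mc1r LKO mouse 182 the rows of the 19S cap are mostly red, and control mouse 193 is blue in most rows.

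The summed levels showed the same arrangement. The sum of the 20S core was 1209, 1366, 1256 and 1177 CPM in control mice 154, 159, 181 and 193 and 1456, 1378, 1359 and 1413 CPM in Mc1r LKO mice 141, 156, 157 and 182, so that mouse 159 alone reached the Mc1r LKO range. The sum of the 19S cap was 1876, 1728, 1844 and 1686 CPM in the control mice and 1866, 1817, 1886 and 2018 CPM in the Mc1r LKO mice, with overlapping groups. The ratio of the cap sum to the core sum was 1.55, 1.27, 1.47 and 1.43 in the control mice and 1.28, 1.32, 1.39 and 1.43 in the Mc1r LKO mice. Mouse 159 had the lowest ratio of all mice and mouse 154 the highest. The sum over all members was between 3327 and 3612 CPM in control mice and between 3687 and 3939 CPM in Mc1r LKO mice. As a share of the deposited counts, before normalization, the members took between 0.347% and 0.369% in control mice and between 0.359% and 0.386% in Mc1r LKO mice, ranges that overlapped.

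**Figure D4:**
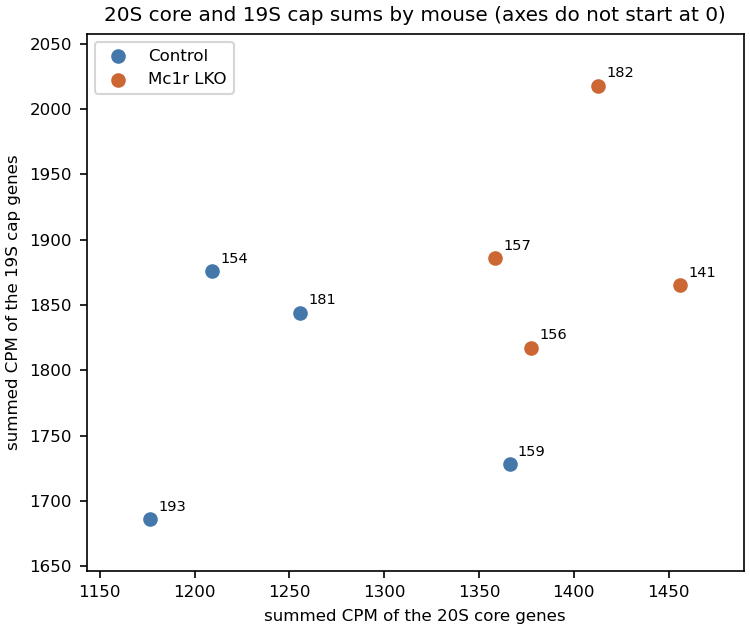
Summed CPM of the 19S cap genes (y axis) against those of the 20S core genes (x axis) in each mouse, neither axis starting at 0. The Mc1r LKO mice lie between 1359 and 1456 CPM on the x axis, where control mouse 159 (1366 CPM) lies with them, and the genotypes overlap on the y axis.

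Between genes, levels were compared as mean CPM per kilobase of exon over the 8 mice. With the merged exon length of the count tables, the 14 core genes other than Psma8 and Psmb11 ranged from 21.1 (Psma3) to 80.0 CPM per kilobase (Psma6) with a median of 36.8, and the 17 cap genes from 18.1 (Psmd1) to 60.5 (Psmc1) with a median of 35.6. These genes encode parts of a complex in equal number. On this length they differed in CPM per kilobase by up to 3.80-fold in the core and 3.34-fold in the cap. By the length of the principal transcript the folds were up to 5.78 and 3.07. Such folds depend on the length used as divisor and are not measured differences in mRNA level. Psma2 and Psma1, for example, had means of 82.3 and 89.5 CPM with principal transcripts of 2911 and 1201 bases. The highest of the beta ring was Psmb6 (69.7) and the lowest Psmb3 (27.2). In the cap the ATPases ran from Psmc2 (19.1) to Psmc1, and the other subunits from Psmd1 to Psmd8 (52.9). The activators ran from Psme4 (13.3) to Psme1 (42.4). The assembly chaperones, which leave the complex once it is built, lay lower, between 4.01 (Psmg3) and 14.2 CPM per kilobase (Psmg1) with a median of 7.41, and Psmf1 was at 4.85. Psma8 was at 0.34.

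Merged exon length adds up all exons of a gene and overstates the length of the common mRNA. Levels were therefore also computed with the length of the principal transcript. Where several transcripts shared the best principal rank the longest was taken, so this length can also be too long. On this scale the core genes ranged from 28.3 (Psma2) to 164 CPM per kilobase (Psmb6) with a median of 82.7, and the cap genes from 34.2 (Psmd13) to 105 (Psmd8) with a median of 51.9. Psma7 moved from 36.3 to 122 CPM per kilobase and became the highest of the alpha ring in place of Psma6 (94.7). Psmb5 stayed at 56.5 CPM per kilobase on both scales and was the lowest of the beta ring subunits by principal length. The chaperones remained low, between 7.61 and 18.3 CPM per kilobase. The order of core and cap genes therefore rests on the length used, and the place of the chaperones below every core and cap gene other than Psma8 and Psmb11 does not.

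**Figure D5:**
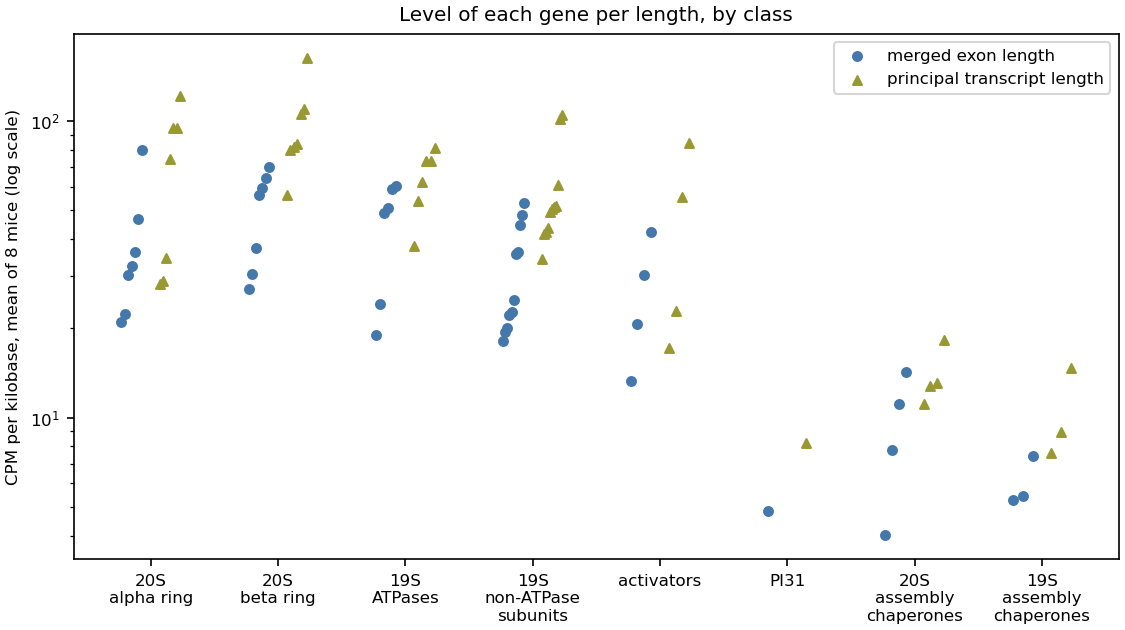
Mean CPM per kilobase over 8 mice (log scale) of each member by class, with the merged exon length of the count tables (circles) and the principal transcript length (triangles). The assembly chaperones (at most 14.2 and 18.3) lie below every gene of the core and cap shown on both scales; Psma8 and Psmb11 are left out.

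The members varied little between mice of one genotype. Their median residual SD on the log2 scale was 0.12, against 0.23 over all tested genes and 0.15 over genes of 50 to 200 CPM. It was below the median of all tested genes in 38 of 44 members, and below that of genes of 50 to 200 CPM in 29 of the 34 members in that range. The activators, with a median of 0.27, were the class with the largest spread.

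Other genes of the pathway were taken from a fixed list of 43 genes, of which 40 were tested. Of these, 24 were higher in Mc1r LKO mice, the median log2 fold change was 0.04, and 3 had an unadjusted p-value under 0.05, 2 higher, where 3.86% of all tested genes were, and 1 lower, where 2.87% of all tested genes were, so these counts were near the background. Rps27a, which encodes ubiquitin fused to a ribosomal protein, was higher. It was at 88.7, 89.6, 82.9 and 78.6 CPM in control mice 154, 159, 181 and 193 and at 122, 108, 106 and 111 CPM in Mc1r LKO mice 141, 156, 157 and 182 (log2 fold change 0.40, SE 0.08, unadjusted p = 0.000781, adjusted p = 0.734). The genotypes did not overlap.

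Mafg, a small Maf protein that pairs with NRF1 and NRF2, was the lower one. It was at 91.8, 96.4, 107 and 90.8 CPM in control mice 154, 159, 181 and 193 and at 78.4, 85.4, 78.1 and 73.8 CPM in Mc1r LKO mice 141, 156, 157 and 182, with no overlap (log2 fold change -0.29, SE 0.09, unadjusted p = 0.0074, adjusted p = 0.734). Nfe2l1, which encodes NRF1, was between 153 and 176 CPM in control mice and between 136 and 182 CPM in Mc1r LKO mice, for a log2 fold change of -0.07 (SE 0.10). Nfe2l2, which encodes NRF2, was between 110 and 175 CPM and between 99.97 and 127 CPM, a log2 fold change of -0.25 (SE 0.16, unadjusted p = 0.134). Pomp, the maturation factor of the core, was at 105, 135, 108 and 100.3 CPM in the control mice and at 113, 122, 125 and 131 CPM in the Mc1r LKO mice. It was highest in mouse 159 and had a log2 fold change of 0.13 (SE 0.11, unadjusted p = 0.253, adjusted p = 0.875). Without that mouse the log2 fold change of Pomp was 0.24 (unadjusted p = 0.0232). In that fit 921 of 13695 tested genes had an unadjusted p-value under 0.05, and 0 had an adjusted one under 0.05. Of the 9 tested partners of the complex, Pomp included, 8 were higher in Mc1r LKO mice (median log2 fold change 0.11), and the 13 tested genes of substrate delivery had a median of 0.04.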

How the data were processed

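Liver RNA (Illumina Stranded mRNA kit) was sequenced. Per the submitters' processing notes, the authors used Trim Galore 0.6.6, STAR 2.7.6a and Subread 2.0.1, and they deposited counts of read pairs on genes as whole numbers, 1 table per mouse, without normalization. The file headers name featureCounts 2.0.1, strand option 2 and Ensembl release 102 of GRCm38, while the methods write GRCh38.

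From these counts, genes were filtered (filterByExpr defaults, minimum count 10), normalized by TMM and tested with the quasi-likelihood test of edgeR 4.0.16 in R 4.3.3, without covariates, with Benjamini-Hochberg adjustment over 13400 genes. CPM values are TMM-normalized, and log2 ratios use a prior count of 2. The test within the authors' software is not named. The model was checked on simulated counts. Alternatives were limma 3.58.1 (voom), DESeq2 1.42.0, RLE and library-size scaling, no filter, at least 10 counts in every mouse, a prior count of 0.5 and leaving out each mouse; leaving out mice 181 and 182 together, the principal transcript length (GENCODE M21) and the counts of Psmb5-ps were added after the data were seen.

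The members and lists were chosen with earlier results of these data known. Values are given for members with an unadjusted p-value under 0.05 or no overlap, catalytic subunits, activators, Psmf1, and in each class the smallest p-value and the highest and lowest level per length, and for other pathway genes with an unadjusted p-value under 0.05 or no overlap, Psmb8 to Psmb10, Nfe2l1, Nfe2l2 and Pomp. Further members named in a sentence were chosen after their values were seen. Paaf1, on the list of partners, was not analysed here. A further pathway gene that the rule would name is not reported here. RefSeq promoter windows matched 37 of the 45 members.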

Additional observations from a re-analysis of the deposited data

Results flagged for a closer look

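In 6 of 74 groups of 4 mice 1 mouse stood apart by Dixon's test, where chance gives about 3.70. In control mice, mouse 159 stood above the others in Psme1 (152.2 CPM), Psme2 (80.79 CPM), Psmb9 (51.32 CPM) and Psmb3 (64.05 CPM), and mouse 154 stood below the others in Psmb5 (30.89 CPM). In Mc1r LKO mice, mouse 182 stood above the others in Psmb1 (159.7 CPM).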

How the results depend on the processing

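No member passed an adjusted p-value of 0.05 under any alternative. The median log2 fold change of the activators changed sign without control mouse 159, from -0.07 to 0.075. This shift was larger than the SD of their median level between mice (0.10). The genotype difference in the ratio of Psmb10 to Psmb7 also changed sign without that mouse. With library size alone as scaling, 1 member had an unadjusted p-value under 0.05, and 1 with the limit on the fold change. Without a filter on low counts 3 members had an unadjusted p-value under 0.05, and without mice 181 and 182 the count was 3, with 9 members whose genotypes did not overlap. Leaving out each mouse in turn gave 1 to 8 members at an unadjusted p-value under 0.05, 1 to 6 with the limit on the fold change and 4 to 13 without overlap (the highest of each without mouse 159), and a median over the activators of -0.10 to 0.075. The ratio of Psmb8 to Psmb5 ranged from -0.96 to -0.53 and that of Psmb9 to Psmb6 from -0.74 to -0.28, and without mouse 154 the latter had an exact p of 0.0286. The cause of these shifts was not tested, although fewer mice make separate groups more likely. Of 494 single values of named genes under the alternatives, 453 kept their side of the threshold, 29 lost it and 12 gained it. Only genes with an unadjusted p-value under 0.05 in the main fit could lose it. Most named genes were above 0.05 there, so the 453 do not measure how stable the genes under it were. No paired analysis was possible because the mouse numbers are animal numbers that the genotypes do not share. Members under 20 CPM (Psma8, Psmd10 and Psmg1 to Psmg4) are limited by depth, since the shallowest library, that of control mouse 159, held 10773151 counts.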
